A study of Homo sapiens with 9 samples.

Results

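The comparison described here set MKN45 cells carrying YAP-S127A against mock cells, which took 6 of the 9 arrays of the study. The columns were chosen by their labels, 3 arrays labelled YAP-S127A vector and 3 labelled mock, and a gene was read from its brightest probe. MKN45 is an established human gastric cancer cell line, and every sample came from it. The YAP-S127A cells had received a vector for YAP-S127A, a form of the coactivator YAP1 in which the serine phosphorylated by the Hippo kinases is an alanine. The vector cells had received a control vector, and the mock cells are labelled only as mock. The other 3 arrays, of the vector cells, have no YAP-S127A and are given beside the main values, because mock cells differ from YAP-S127A cells in the vector as well as in its insert. The labels give neither the kind of vector, nor the time after its delivery, nor whether the cells were a clone or a pool.

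YAP1 and its relative TAZ bind the TEAD factors and drive genes of growth, adhesion and the cytoskeleton, and in epithelia the Hippo kinases hold YAP1 in the cytoplasm when cells are crowded. Hypoxia-inducible factors (HIFs) raise the genes of glucose uptake, glycolysis, collagen hydroxylation and pH control when oxygen falls. Metallothioneins are small cysteine-rich proteins that bind zinc, copper and cadmium, and the metal-sensing factor MTF1 induces them when free zinc rises.

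The array signals had medians of 107 to 136 intensity units, and values below are log2 intensities after background correction and quantile normalization. The 9 arrays entered 1 limma fit across 16180 genes, a gene counts as called where its p, after Benjamini-Hochberg adjustment, was under 0.05, and "rose" and "fell" are used of called genes only. The number of arrays limits the precision. The labels do not tell whether the replicates of a group were grown apart, so each p-value rests on the spread among replicate arrays and that spread may be technical only. In bulk RNA, fewer cells of a kind and less RNA per cell cannot be told apart. Mock array 1 stood apart from the other mock arrays, with scores of -15.9 and 17.9 on the first and second principal components, against -5.33 and -5.61 and against 1.14 and -9.94 for mock arrays 2 and 3. The gastric epithelial markers were present: EPCAM, an adhesion molecule of epithelial cells, had means of 13.8, 13.8 and 13.7 in YAP-S127A, vector and mock cells, at the 99.3 percentile of all probes in each. GKN1, a protein of normal gastric surface cells, was dim, with 6.24, 6.16 and 6.11. The summed level of the 17 gastric epithelial markers with a probe was 183.9 to 184.6 over the YAP-S127A arrays, 184.8 to 185.5 over the vector arrays and 183.4 to 185.1 over the mock arrays. That of the 8 fibroblast markers was 50.9 to 51.5, 49.999 to 50.5 and 49.9 to 50.9, with 2, 3 and 2 of them under the filter on dim probes. That of the 5 endothelial markers was 30.4 to 31.1, 30.2 to 30.5 and 30.3 to 30.9, with 3, 4 and 3 under the filter. That of the 7 blood cell markers, HBB among them, was 49.7 to 49.97 in YAP-S127A cells, 49.0 to 50.5 in vector cells and 47.0 to 47.5 in mock cells.

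The table held 1 YAP1 probe, and it overlapped between the groups: its levels were 6.19, 6.11 and 6.06 in YAP-S127A cells, 6.02, 5.97 and 6.14 in vector cells and 6.12, 5.99 and 6.15 in mock cells. It lay under the 6.18 set as the filter on dim probes, at the 12.3 percentile of all probes. Whether it matches the delivered sequence is not known, so it checks nothing about the groups.

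In YAP-S127A cells against mock cells 687 genes were called, 4.25% of those tested, of which 352 rose and 335 fell. The rises were the larger changes: 45 genes rose at least 2-fold and 3 fell as far. Over all genes tested the median difference was -0.0022 on the log2 scale. Of all genes tested, 20.4% had YAP-S127A arrays that did not overlap the mock arrays, and 10.1% had vector arrays that did not. Vector cells against mock cells gave 2 called genes, 0.0124%, with 911 genes at an unadjusted p under 0.05, against 2756 in YAP-S127A cells against mock cells. YAP-S127A cells against vector cells gave 559, 3.45%, of which 284 rose (1.76%) and 275 fell (1.7%). These comparisons share arrays, so their values are given side by side and no overlap is drawn from them, and YAP-S127A against vector is the test of whether the difference from mock differed between YAP-S127A and vector cells. Scaled to equal medians in place of quantiles, 186 rose and 281 fell against mock, and 167 rose and 266 fell against vector. The count against mock was 332 without YAP-S127A array 2, 339 without YAP-S127A array 1 and 375 without mock array 1. The count against vector was 299 on leaving out YAP-S127A array 2, 332 on leaving out YAP-S127A array 1, 308 on leaving out vector array 3 and 340 on leaving out vector array 2. Vector against mock gave 54 genes without mock array 3 and 1 without mock array 2, vector array 2 or vector array 3.

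A large difference from mock was shared by both groups with a vector. HBB, the beta chain of adult haemoglobin, had levels of 8.77, 8.78 and 8.86 in YAP-S127A cells, 8.36, 8.47 and 8.91 in vector cells and 6.36, 6.37 and 6.56 in mock cells. All 6 arrays of cells with a vector lay above all 3 mock arrays. The difference from mock was 2.38 ± 0.12 in YAP-S127A cells (SE, adjusted p = 5.79e-12) and 2.15 ± 0.12 in vector cells (adjusted p = 2.35e-10). YAP-S127A cells exceeded vector cells by 0.22, which did not pass (adjusted p = 0.402, 95% interval -0.03 to 0.48). The 11 probes of other globin genes and pseudogenes stayed between 5.68 and 6.69 on all 9 arrays. Among the other blood cell markers, the leukocyte antigen PTPRC had means of 6.21, 6.13 and 6.3 in YAP-S127A, vector and mock cells, near the filter, and CD68, a lysosomal protein, had 9.74, 9.69 and 9.71. HBB is thus among the 12 genes with the largest rises against mock, and it rose in cells with the control vector too. The other gene called in vector cells, TAOK1, a kinase that feeds into the stress and Hippo cascades, had 8.62, 8.22 and 8.37 in YAP-S127A cells, 8.67, 8.85 and 9.04 in vector cells and 8.29, 7.78 and 7.95 in mock cells. It was highest in vector cells, by 0.85 over mock (adjusted p = 0.0154), and the 0.40 by which YAP-S127A exceeded mock did not pass (adjusted p = 0.0984). The TAOK1 call was lost without mock array 2, vector array 2 or vector array 3, while that of HBB in vector cells was kept on leaving out any 1 array.

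Beside HBB, genes with large rises included a matricellular protein, 2 parts of caveolae, a protease and a glucose transporter. CCN1, a secreted matricellular protein and YAP target, had 9.19, 8.98 and 8.84 in YAP-S127A cells and 6.33, 6.47 and 6.24 in mock cells, a difference of 2.66 ± 0.11 (adjusted p = 1.43e-13). CAVIN1 and CAV1, which build caveolae, rose by 2.14 and 1.78, and PLAU, the urokinase plasminogen activator, by 2.12. TNNC1, a troponin of slow muscle and heart, rose by 2.12, VGLL1, a cofactor of TEAD factors, by 1.89, CCDC9B by 1.62 and the secreted serine protease KLK6 by 1.55. ZBED2, a zinc finger transcription factor, had 8.12, 8.01 and 8.02 in YAP-S127A cells against 5.85, 6.06 and 5.81 in mock cells, whose mean lay under the filter, so that no fold is given. These genes were picked from those in which all 3 YAP-S127A arrays lay above all 3 mock arrays, which held for 10.3% of all genes. Vector cells differed from mock cells by -0.22 to 0.31 in these genes, other than HBB and the glucose transporter SLC2A3, which is described below.

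The falls were smaller. ALDOC, the brain-type aldolase of glycolysis, fell most, and MT2A, a metallothionein, was next. Both are described below with their families. REG4, a secreted lectin of the gastrointestinal tract, had 10.3, 10.4 and 10.2 in YAP-S127A cells and 11.2, 11.5 and 11.4 in mock cells, a difference of -1.07 ± 0.11 (adjusted p = 1.23e-06). ANXA10, an annexin of gastric epithelium, differed by -0.999 (adjusted p = 5.16e-07), and CLDN18, a tight junction protein of the stomach, fell by 0.91. DEPTOR, an inhibitor of the mTOR kinase, fell by 0.95, SPRR1B, a cornified envelope protein, by 0.94, LRP4, a receptor of the LDL receptor family, by 0.93 and REPS2, an endocytic adaptor, by 0.92. HEY1, a Notch-induced repressor, fell by 0.91, APOBEC1, an RNA-editing deaminase, by 0.89 and ISG20, an interferon-induced exonuclease, by 0.88. A second HEY1 probe differed by -0.08 only. In these 12 genes the vector cells stood on either side of mock, with differences of 0.10 in REG4, 0.08 in SPRR1B and -0.03 in REPS2, but of -0.69 in ALDOC, -0.60 in MT2A and -0.49 in HEY1.

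**Figure D1:**
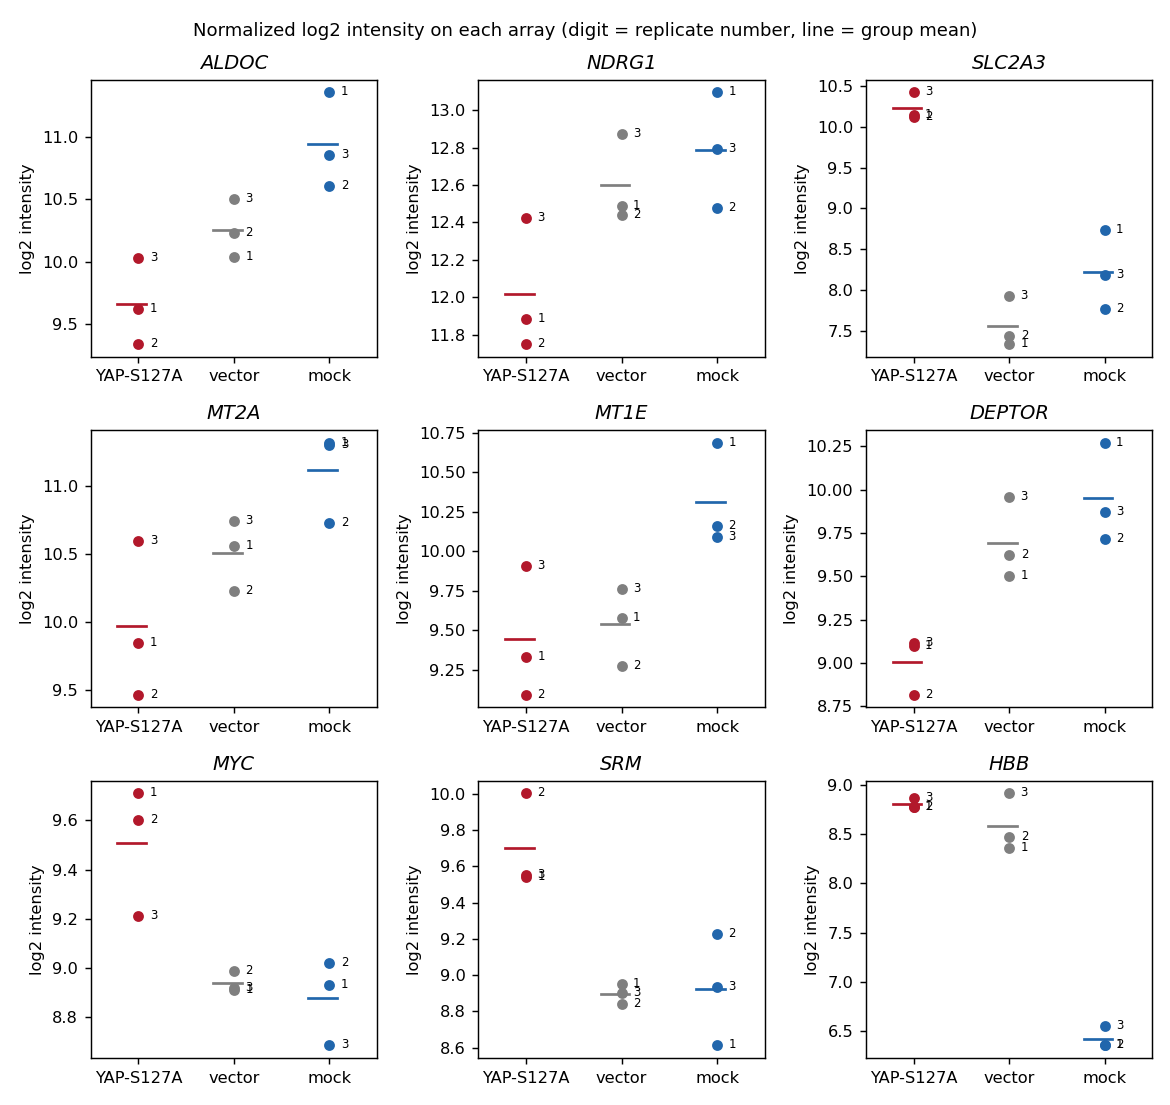
Normalized log2 intensity of 9 genes on each array (vertical axes, a scale of its own for each gene) in YAP-S127A, vector and mock cells; digits are replicate numbers and lines group means. HBB is at 8.36 to 8.91 in both groups with a vector and at 6.36 to 6.56 in mock cells, while MYC and SRM are higher in YAP-S127A cells than in both others, and for ALDOC and MT2A the vector mean lies between the other means.

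Metallothioneins were lower in YAP-S127A cells. Of the 11 genes named in the list 6 were tested, and 5 fell and 0 rose, beside 2.07% of all genes that fell. Their median difference was -0.70, against -0.0022 over all genes. The 5 called genes were the metallothioneins MT2A, MT1X, MT1E, MT1H and MT1F. The proteins and their transcripts are near-identical, and the probes of 1 member may read another, so the members are not separate measurements.

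MT2A, the most widely expressed metallothionein, had 9.85, 9.47 and 10.60 in YAP-S127A cells, 10.56, 10.23 and 10.74 in vector cells and 11.32, 10.73 and 11.30 in mock cells. YAP-S127A array 3 was the highest of its group and came near mock array 2, but the groups did not overlap. The difference from mock was -1.14 ± 0.20 (SE, adjusted p = 0.000919), 0.452 times the mock level. MT1E had 9.33, 9.09 and 9.91 in YAP-S127A cells, 9.58, 9.27 and 9.76 in vector cells and 10.69, 10.16 and 10.09 in mock cells, so that both groups with a vector lay below every mock array. Its difference from mock was -0.87 in YAP-S127A cells (adjusted p = 0.00345) and -0.77 in vector cells, which did not pass over all genes (adjusted p = 0.491). MT1X differed by -0.90 (adjusted p = 0.00471), although YAP-S127A array 3 (11.09) lay above mock array 2 (11.01). MT1H fell by 0.54 and MT1F by 0.52, and MT1G, at 6.56 to 6.81 on all arrays, had a difference of -0.13 (adjusted p = 0.578). The second probes of MT1E and MT1H, both dim, differed by 0.08 and -0.02.

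Vector cells were below mock cells in 6 of the 6 metallothioneins, by -0.77 to -0.09 with a median of -0.34, and 0 were called. YAP-S127A cells were below vector cells in 6 of 6, by a median of -0.25, and 0 were called there either. For MT2A the difference from vector was -0.54 (adjusted p = 0.158, 95% interval -0.95 to -0.13), and for MT1E it was -0.09 (adjusted p = 0.858, 95% interval -0.45 to 0.26). The test therefore did not separate YAP-S127A from the control vector in any member. Over the 6 members the mean deviation from the 9-array mean was -0.40, -0.60 and 0.02 in the YAP-S127A arrays, -0.04, -0.18 and 0.11 in the vector arrays and 0.51, 0.16 and 0.41 in the mock arrays. With trend and robust moderation of the variances MT1F and MT1H stayed called (2 of the 5), with the mean of a gene's probes 3 did, and without YAP-S127A array 2 the calls of MT1X and MT1F were lost.

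The promoters of 3 tested metallothioneins were in the RefSeq table of GRCh38.p14, and they are shown because the members fell together. Each window covers the 250 bases before and the 50 after the gene start, and capitals mark matches, on either strand, to the metal response core TGCACNC or TGCGCNC. The MT2A window is chr16:56608334-56608633, that of MT1X chr16:56682220-56682519 and that of MT1H chr16:56669564-56669863, all on the plus strand.
MT2A: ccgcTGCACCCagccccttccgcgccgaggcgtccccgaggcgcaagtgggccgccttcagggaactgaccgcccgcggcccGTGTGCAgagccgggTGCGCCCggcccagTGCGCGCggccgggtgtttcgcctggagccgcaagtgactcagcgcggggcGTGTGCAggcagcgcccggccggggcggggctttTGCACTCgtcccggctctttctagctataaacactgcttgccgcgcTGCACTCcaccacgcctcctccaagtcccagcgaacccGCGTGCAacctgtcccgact
MT1X: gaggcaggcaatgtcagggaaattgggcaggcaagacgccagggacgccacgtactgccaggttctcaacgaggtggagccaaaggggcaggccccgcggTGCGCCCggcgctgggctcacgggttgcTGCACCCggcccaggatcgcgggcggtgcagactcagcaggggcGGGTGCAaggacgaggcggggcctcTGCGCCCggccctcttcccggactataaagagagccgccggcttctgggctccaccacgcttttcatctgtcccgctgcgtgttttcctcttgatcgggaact
MT1H: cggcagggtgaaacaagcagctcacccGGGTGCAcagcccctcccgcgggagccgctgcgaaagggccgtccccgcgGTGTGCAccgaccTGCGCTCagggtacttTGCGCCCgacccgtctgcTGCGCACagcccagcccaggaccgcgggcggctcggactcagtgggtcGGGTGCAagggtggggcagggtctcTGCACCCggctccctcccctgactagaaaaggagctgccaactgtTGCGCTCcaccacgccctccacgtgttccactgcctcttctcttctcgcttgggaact
The core matched 8 times in MT2A, from 246 bases before to 30 after the start (-246 to 30), 8 times in MT1H and 4 times in MT1X. At least 1 match was present in 29.1% of the 27305 promoters of the table and at least 4 in 0.597%. Among the promoters of genes tested these shares were 35.7% and 0.808%. A match is a description of letters and not a binding site.

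Genes of zinc, iron and copper handling other than metallothioneins were mostly near their mock levels. Of 17 tested, 0 rose and 2 fell, beside 2.18% and 2.07% of all genes, with a median of -0.05. SLC11A2, an iron importer, had 11.38, 11.40 and 11.71 in YAP-S127A cells and 12.48, 11.85 and 12.04 in mock cells, a difference of -0.63 (adjusted p = 0.00997). SLC40A1, the iron exporter ferroportin, fell by 0.37 (adjusted p = 0.0302), and it differed from vector cells by -0.55 (adjusted p = 0.00133). MTF1, the metal-sensing factor, differed by 0.04 (adjusted p = 0.887) and SLC30A1, a zinc exporter that MTF1 induces, by -0.14 (adjusted p = 0.505). Both falls were lost without YAP-S127A array 1, YAP-S127A array 2 or mock array 1, and that of SLC40A1 also without mock array 2.

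Hypoxia-response genes were lower in YAP-S127A cells as a group. Of the 26 tested, 10 fell and 0 rose, beside 2.07% of all genes that fell, and 24 of 26 had a negative difference, with a median of -0.30. The YAP-S127A arrays lay below all mock arrays in 10 of the 26, while they did so in 10.1% of all genes. The called genes were NDRG1, CA12, PLOD2, KDM3A, ERO1A, P4HA1, MXI1, PLOD1, DDIT4 and P4HA2.

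Among their enzymes of collagen modification, PLOD2, a lysyl hydroxylase, had 11.42, 11.46 and 11.75 in YAP-S127A cells, 11.997, 12.08 and 12.03 in vector cells and 12.26, 12.19 and 12.12 in mock cells. The YAP-S127A arrays were below every other array. Its difference from mock was -0.65 ± 0.11 (adjusted p = 0.000538), and it was called in each alternative tried. PLOD1, another lysyl hydroxylase, fell by 0.45, and the prolyl hydroxylases P4HA1 and P4HA2 by 0.54 and 0.39. CA12, a membrane carbonic anhydrase of pH control, had 9.21, 9.54 and 9.42 in YAP-S127A cells, 9.89, 10.17 and 10.14 in vector cells and 10.04, 10.10 and 10.30 in mock cells. Here the vector and mock arrays overlapped and the YAP-S127A arrays stood below both. It fell by 0.76 against mock (adjusted p = 0.000206) and by 0.67 against vector (adjusted p = 0.000846), but its second probe differed from mock by -0.06, and the mean of both probes did not pass (adjusted p = 0.0559, the highest of its 23 alternatives). NDRG1, a stress-induced growth regulator, had 11.88, 11.75 and 12.42 in YAP-S127A cells, 12.49, 12.44 and 12.88 in vector cells and 13.10, 12.48 and 12.79 in mock cells. YAP-S127A array 3 sat just under the lowest mock array. Its difference was -0.77 ± 0.16 from mock (adjusted p = 0.00561) and -0.58 from vector (adjusted p = 0.0442). KDM3A, a histone demethylase, fell by 0.62, ERO1A, an oxidase of the endoplasmic reticulum, by 0.57, MXI1, a MYC antagonist, by 0.51 and DDIT4, an inhibitor of mTOR signalling, by 0.42. Other MXI1 probes gave -0.34, 0.02 and 0.14, and other P4HA2 probes -0.40 and -0.13.

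Vector cells had a median difference of -0.13 from mock in the 26 genes, 23 of them negative, and 0 were called. YAP-S127A cells differed from vector cells by a median of -0.20, with 3 called lower, CA12, PLOD2 and NDRG1, beside 1.7% of all genes. The mean deviation of the list was -0.26, -0.22 and -0.02 in the YAP-S127A arrays, -0.06, -0.02 and 0.10 in the vector arrays and 0.32, -0.01 and 0.16 in the mock arrays, so that YAP-S127A array 3 and mock array 2 had about the same value. Mock array 1 was the highest of the 9. The 10 falls became 2 without YAP-S127A array 2, 3 without YAP-S127A array 1 and 4 without mock array 1. With the mean of a gene's probes 6 passed. Other hypoxia genes did not pass: VEGFA, the vascular growth factor, had a difference of -0.21 (adjusted p = 0.508), ADM, the vasodilator adrenomedullin, -0.27 (adjusted p = 0.401) and BNIP3, a mitophagy receptor, -0.26 (adjusted p = 0.173).

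The regulators of the response were near their mock levels. Among 10 HIF pathway regulators 1 rose and 0 fell, beside 2.18% and 2.07% of all genes. EPAS1, which encodes HIF-2 alpha, had 9.75, 9.68 and 9.82 in YAP-S127A cells, 9.53, 9.52 and 9.51 in vector cells and 9.34, 9.50 and 9.36 in mock cells, a rise of 0.35 (adjusted p = 0.0432). That call was kept in 8 of the 23 alternatives, and it was lost without any 1 array other than mock array 2. HIF1A, which encodes HIF-1 alpha, had a difference of 0.11 (adjusted p = 0.769).

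**Figure D2:**
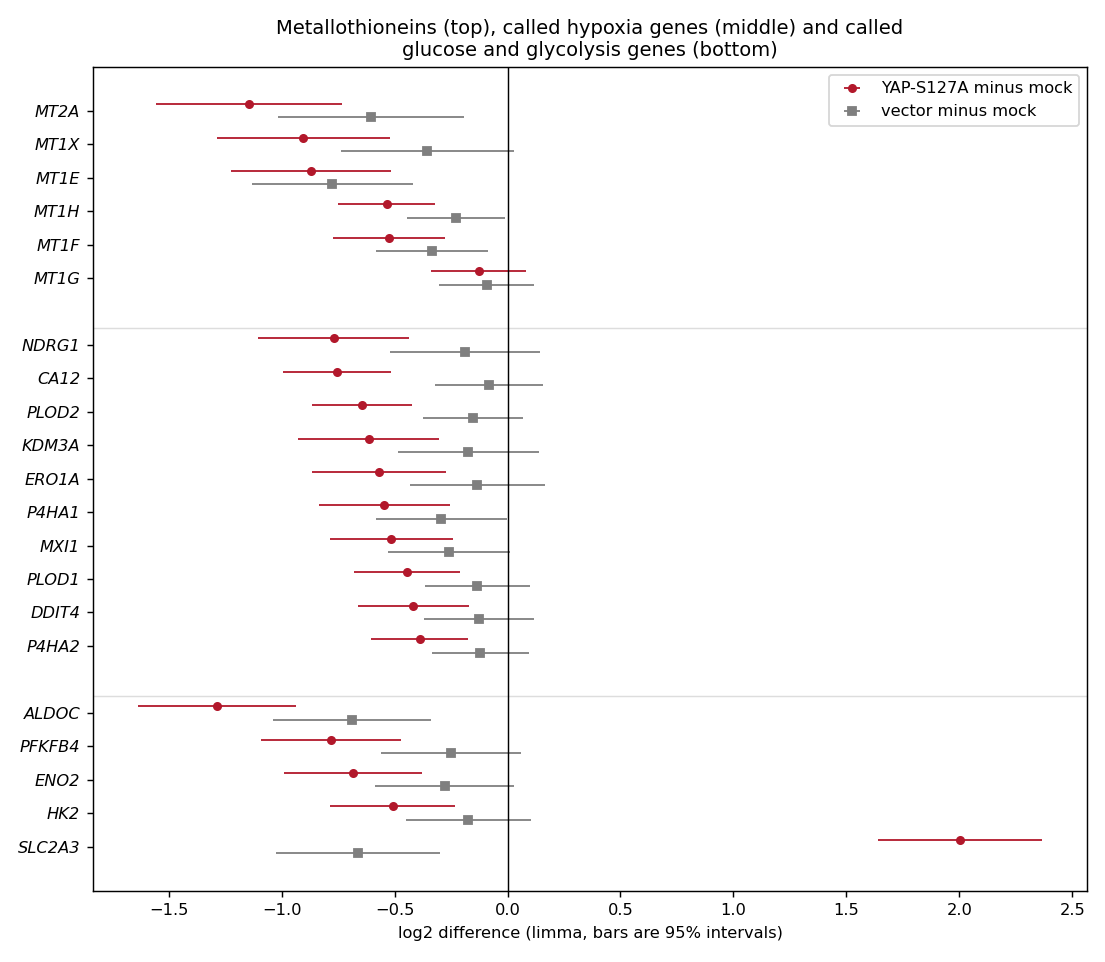
Log2 difference from mock (horizontal axis) of the 6 metallothioneins and of the called hypoxia and glycolysis genes, in YAP-S127A cells (red circles) and vector cells (grey squares), with 95% intervals of the limma fit. The YAP-S127A points lie from -1.29 for ALDOC to 2.00 for SLC2A3, and the vector points lie left of 0 for each gene shown.

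Glucose uptake and glycolysis showed both directions. Of 30 genes tested, 1 rose and 4 fell, beside 2.18% and 2.07% of all genes, and the median difference was -0.06. A single rise among 30 is near the share of all genes. SLC2A3, the high-affinity glucose transporter GLUT3, had 10.15, 10.12 and 10.42 in YAP-S127A cells, 7.34, 7.43 and 7.92 in vector cells and 8.74, 7.76 and 8.18 in mock cells. Every YAP-S127A array was above every other array, and mock array 1 was the highest control. The rise was 2.00 ± 0.18 over mock (adjusted p = 6.81e-08) and 2.66 over vector (adjusted p = 4.58e-10), while vector cells differed from mock by -0.66 (adjusted p = 0.511). SLC2A1, the glucose transporter GLUT1, differed by 0.01 (adjusted p = 0.969).

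ALDOC had 9.61, 9.33 and 10.03 in YAP-S127A cells, 10.03, 10.23 and 10.50 in vector cells and 11.36, 10.61 and 10.86 in mock cells. The YAP-S127A and mock arrays did not overlap, the vector mean lay between theirs, and mock array 1 was the highest. The difference from mock was -1.29 ± 0.17 (adjusted p = 2.67e-05), or 0.41 times the mock level, and without mock array 1 it was -1.08 (adjusted p = 0.000201). Its call was kept in 23 of 23 alternatives, with adjusted p up to 0.0118. Vector cells differed from mock cells by -0.69 (adjusted p = 0.491) and YAP-S127A cells from vector cells by -0.60 (adjusted p = 0.051). PFKFB4, which makes and removes a fructose bisphosphate that activates glycolysis, fell by 0.78, ENO2, the neuronal enolase, by 0.68 and HK2, an inducible hexokinase, by 0.51. Abundant glycolytic genes stayed close to mock: LDHA, the lactate dehydrogenase, differed by 0.0007 and GAPDH, the glyceraldehyde phosphate dehydrogenase, by -0.15 (adjusted p = 0.483). Without YAP-S127A array 1, YAP-S127A array 2 or mock array 1, 2 of the 4 falls passed.

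The ALDOC promoter is shown because this gene fell most. The window is chr17:28576846-28577145 on the minus strand of GRCh38.p14, from the same table, and capitals mark matches on either strand to the hypoxia response core ACGTG or GCGTG.
ALDOC: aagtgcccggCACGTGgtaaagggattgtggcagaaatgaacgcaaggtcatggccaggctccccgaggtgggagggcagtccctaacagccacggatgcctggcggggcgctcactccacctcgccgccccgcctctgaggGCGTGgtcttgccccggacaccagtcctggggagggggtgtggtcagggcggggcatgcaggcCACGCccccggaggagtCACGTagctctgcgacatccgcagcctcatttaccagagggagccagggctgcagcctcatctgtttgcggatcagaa
The window held 5 matches, of which CACGTG counts on both strands. The core was present in 17 of the 21 hypoxia-response promoters (81.0%) and in 19 of 28 glycolysis promoters (67.9%), against 57.6% of the promoters of genes tested and 47.8% of all in the table. The hypoxia core was also present in 3 of the 3 metallothionein promoters, and GCGTG lies within metal response matches that read GCGTGCA.

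Antioxidant genes controlled by NRF2 had 3 falls and 0 rises among 27 tested, beside 2.07% and 2.18% of all genes, with a median of -0.12. GPX2, a glutathione peroxidase of gut epithelium, had 11.98, 11.56 and 11.79 in YAP-S127A cells, 12.76, 12.29 and 12.28 in vector cells and 12.46, 12.34 and 12.45 in mock cells. The YAP-S127A arrays were below all others, and vector and mock arrays overlapped. The difference was -0.64 from mock (adjusted p = 0.00387) and -0.67 from vector (adjusted p = 0.00285). AKR1B10, an aldo-keto reductase, fell by 0.59 against mock and by 0.69 against vector, and PIR, an iron-binding nuclear protein, by 0.37 and 0.42. The PIR call was lost without any 1 YAP-S127A or mock array. NQO1, a quinone reductase, had a difference of -0.27 (adjusted p = 0.181) and HMOX1, heme oxygenase, one of 0.38 (adjusted p = 0.114). The median difference of vector cells from mock was 0.05, and 0 genes were called there. In YAP-S127A cells against vector cells HMOX1 rose and 5 genes fell, AKR1B10, GPX2, PIR, ABCC3 and GCLC. Of all genes, 1.76% rose and 1.7% fell in that comparison. The antioxidant core TGACNNNGC was present in 7 of 21 promoters of the list (33.3%) and in 14.8% of the promoters of genes tested.

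Stress genes of the amino acid response were called in both directions against mock, and those of protein folding had few calls. Of all genes, 2.18% rose and 2.07% fell against mock, and 1.76% rose against vector. Among 31 genes of the ATF4 and amino acid response 2 rose and 2 fell, with a median of -0.0017. GDF15, a stress cytokine, had 13.40, 13.46 and 13.41 in YAP-S127A cells and 12.86, 13.00 and 13.11 in mock cells, a rise of 0.44 (adjusted p = 0.0144). Its difference from vector cells did not pass. SLC7A5, a transporter of large neutral amino acids, rose by 0.51, and VLDLR, a lipoprotein receptor, fell by 0.39, and DDIT4, above, was the other fall. DDIT3, the stress factor CHOP, had 7.51, 7.66 and 7.94 in YAP-S127A cells and 8.98, 7.92 and 7.95 in mock cells, with mock array 1 far above the rest, and its difference of -0.58 did not pass (adjusted p = 0.0842). Against vector cells 4 genes of the list rose, ATF3, PPP1R15A, SLC7A5 and PSAT1, with ATF3, an early stress factor, at 0.68 over vector (adjusted p = 0.00561) and 0.28 over mock (adjusted p = 0.31). Of 19 genes of the unfolded protein response 0 were called. Among 20 heat shock genes 1 rose, DNAJB1, a cochaperone, with 9.17, 9.25 and 9.16 in YAP-S127A cells, 9.06, 9.30 and 8.85 in vector cells and 8.65, 8.81 and 8.72 in mock cells. Both groups with a vector lay above the mock arrays, by 0.47 (adjusted p = 0.0169) and 0.35 (adjusted p = 0.685). Of 22 genes of the p53 response GDF15 rose and ZMAT3, an RNA-binding p53 target, fell. ZMAT3 had 12.85, 12.91 and 12.33 in YAP-S127A cells, 12.75, 12.64 and 12.67 in vector cells and 13.40, 13.40 and 12.92 in mock cells. Its difference from mock was -0.54 in YAP-S127A cells (adjusted p = 0.0281) and -0.55 in vector cells (adjusted p = 0.491), and 0.01 between them (95% interval -0.28 to 0.30). The SLC7A5 call was lost without YAP-S127A array 1, YAP-S127A array 2, mock array 2 or mock array 3, and that of VLDLR without any 1 YAP-S127A array, mock array 1 or mock array 3. The calls of GDF15 and DNAJB1 were lost without YAP-S127A array 1, YAP-S127A array 2 or mock array 1, and that of ZMAT3 without YAP-S127A array 3, mock array 2 or mock array 1. With scaling to equal medians the calls of GDF15, SLC7A5, VLDLR, DDIT4 and DNAJB1 were lost. That of ZMAT3 was also lost with the mean of its probes, with only the 6 arrays compared and with trend and robust moderation. Its difference was as small as -0.098 among the alternatives.

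In lipid metabolism most cholesterol genes had negative differences from mock in both groups with a vector. Both were set against the same mock arrays, so they are not separate observations. Of 20 genes of cholesterol synthesis 2 fell and 0 rose, beside 2.07% and 2.18% of all genes, 16 had a negative difference, and the median was -0.19. HMGCS1, an early enzyme of the pathway, had 10.27, 10.39 and 10.65 in YAP-S127A cells, 10.54, 10.44 and 10.75 in vector cells and 11.25, 10.92 and 10.88 in mock cells. All 6 arrays with a vector were below the mock arrays. In 10.1% of all genes the vector and mock arrays did not overlap. The difference from mock was -0.58 in YAP-S127A cells (adjusted p = 0.00691) and -0.44 in vector cells (adjusted p = 0.511), and -0.14 between them (adjusted p = 0.651). INSIG1, the sterol sensor partner that retains SREBP, fell by 0.48, and its second probe differed by -0.06. The median difference of vector cells from mock was -0.08, with 16 of 20 negative and 0 called. Of 16 genes of fatty acid synthesis 2 fell, beside the same 2.07% of all genes. These were ACSS2, the acetyl-CoA synthetase of the cytosol, by 0.57 (adjusted p = 0.00262) and SCD, the stearoyl-CoA desaturase, by 0.38 (adjusted p = 0.0378). FASN, the fatty acid synthase, had 0.33 (adjusted p = 0.172). Of 13 genes of fatty acid oxidation 0 were called. Without YAP-S127A array 1 no cholesterol gene passed, and 1 passed without YAP-S127A array 2 or mock array 1. The SCD call was lost without any 1 YAP-S127A array, vector array 1, mock array 1 or mock array 2.

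Of 22 genes of energy and mTOR control, DEPTOR and DDIT4 fell, both of which restrain mTOR complex 1, beside 2.07% of all genes that fell. DEPTOR had 9.09, 8.82 and 9.11 in YAP-S127A cells, 9.50, 9.63 and 9.96 in vector cells and 10.27, 9.71 and 9.87 in mock cells. The YAP-S127A arrays were below all others, and vector and mock arrays overlapped. The fall was 0.95 against mock (adjusted p = 0.000102) and 0.69 against vector (adjusted p = 0.00413), a second probe gave -0.76 against mock, and the call was kept in 23 of 23 alternatives. The DDIT4 call was lost without any 1 array other than YAP-S127A array 3 and mock array 2. TXNIP, a glucose-responsive inhibitor of glucose uptake, had a difference of -0.35 (adjusted p = 0.162).

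**Figure D3:**
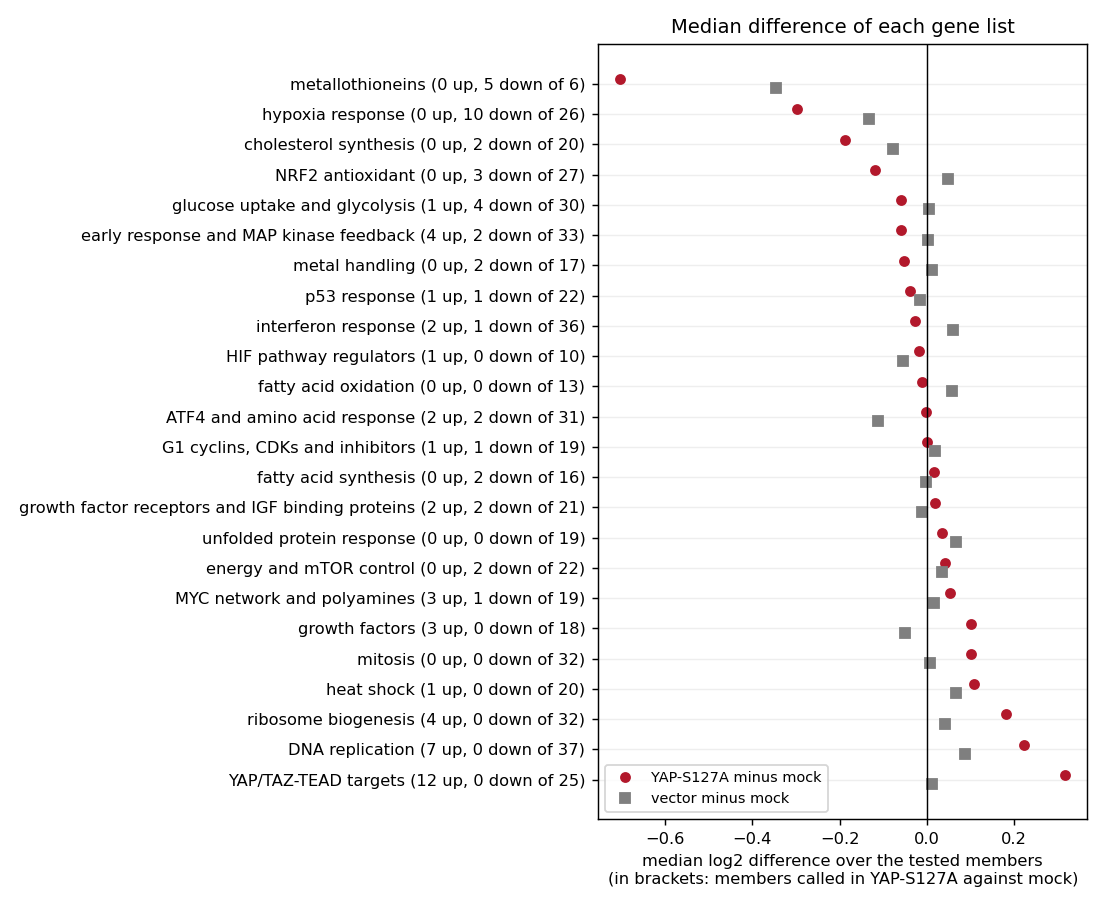
Median log2 difference from mock of each gene list (horizontal axis), in YAP-S127A cells (red circles) and vector cells (grey squares); brackets give the members called in YAP-S127A against mock of those tested. The lists run from the metallothioneins, at -0.70 and -0.34, to the YAP/TAZ-TEAD targets, at 0.32 and 0.01.

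Growth factor genes moved in a few members. Of 18 growth factors tested 3 rose and 0 fell, beside 2.18% and 2.07% of all genes, with a median of 0.10. FGF2, basic fibroblast growth factor, had 7.93, 8.08 and 8.03 in YAP-S127A cells, 7.17, 6.88 and 7.19 in vector cells and 7.29, 7.33 and 7.04 in mock cells. The YAP-S127A arrays were above all others. Its rise was 0.79 ± 0.11 over mock (adjusted p = 7.49e-05) and 0.93 over vector (adjusted p = 8.15e-06), and a second probe gave 0.22 over mock. FGFBP1, a secreted carrier that releases FGF2 from the matrix, rose by 0.69 over mock (adjusted p = 0.000464) and 0.71 over vector. GDF15, above, was the other, and it did not pass against vector. Among 21 receptors and IGF binding proteins 2 rose and 2 fell, beside the same shares of all genes. IGFBP1, a secreted binder of insulin-like growth factors, had 7.35, 7.47 and 7.37 in YAP-S127A cells, 6.37, 6.32 and 6.21 in vector cells and 6.55, 6.58 and 6.44 in mock cells, a rise of 0.87 over mock (adjusted p = 4.22e-06) and 1.09 over vector. IGFBP3 rose by 0.65 over mock. The receptor tyrosine kinases ERBB3 and FGFR3 fell by 0.50 and 0.48. A second FGFR3 probe gave -0.01. EGFR, the epidermal growth factor receptor, had 0.24 (adjusted p = 0.266), and MET, the hepatocyte growth factor receptor, had 0.08 (adjusted p = 0.805). The ERBB3 call was lost without YAP-S127A array 1, and that of FGFR3 without YAP-S127A array 1, YAP-S127A array 2 or mock array 1.

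Of 33 early-response and MAP kinase feedback genes 4 rose and 2 fell, beside 2.18% and 2.07% of all genes. DUSP5, a phosphatase of nuclear ERK, had 8.65, 8.40 and 8.60 in YAP-S127A cells, 7.64, 7.58 and 7.60 in vector cells and 7.58, 7.52 and 7.73 in mock cells, a rise of 0.94 over mock (adjusted p = 2.46e-06). FOSL1, an AP-1 subunit, rose by 0.92 (adjusted p = 1.16e-05), IER5 by 0.48 and the zinc finger factor EGR1 by 0.45. SPRY2, a feedback inhibitor of receptor tyrosine kinases, fell by 0.41 and ETV5, an ETS factor downstream of ERK, by 0.39. Neither fall passed against vector cells. There 6 genes of the list rose, DUSP5, FOSL1, EGR1, ATF3, IER5 and DUSP1, and 2 fell, KLF4 and DUSP6. Of all genes, 1.76% rose and 1.7% fell against vector. With quantile normalization, feedback genes of the same pathway were thus called against mock in both directions. With scaling to equal medians 2 genes of the list rose and 0 fell against mock, and the calls of SPRY2, ETV5, EGR1 and IER5 were lost. Both falls and the EGR1 rise were lost without YAP-S127A array 1 or YAP-S127A array 2. SPRY2 was also lost without mock array 2 or mock array 3, ETV5 without YAP-S127A array 3, mock array 1 or mock array 2, EGR1 without mock array 2, and IER5 without YAP-S127A array 2, YAP-S127A array 3 or mock array 1.

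In the MYC network and polyamine synthesis 3 of 19 genes rose and 1 fell, beside 2.18% and 2.07% of all genes. MYC had 9.71, 9.60 and 9.21 in YAP-S127A cells, 8.91, 8.99 and 8.92 in vector cells and 8.93, 9.02 and 8.68 in mock cells. All YAP-S127A arrays were above all others. The rise was 0.63 ± 0.12 over mock (adjusted p = 0.00325) and 0.57 over vector (adjusted p = 0.00801), and a second MYC probe gave 1.06 over mock. SRM, the spermidine synthase, had 9.54, 10.003 and 9.55 in YAP-S127A cells, 8.95, 8.84 and 8.90 in vector cells and 8.61, 9.23 and 8.94 in mock cells, a rise of 0.77 over mock (adjusted p = 0.00122) and 0.80 over vector (adjusted p = 0.000859). ODC1, the ornithine decarboxylase that opens polyamine synthesis, rose by 0.45 (adjusted p = 0.0202). The call of ODC1 and that of MXI1, which fell, were lost without YAP-S127A array 1, YAP-S127A array 2 or mock array 1.

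Ribosome biogenesis and DNA replication genes were higher by small amounts. Of 32 ribosome biogenesis genes 4 rose and 0 fell, beside 2.18% of all genes that rose, 25 were positive, and the median was 0.18. The called genes were NOLC1, a nucleolar chaperone, with 0.47, RRP12, an export factor of ribosomal subunits, with 0.47, LYAR, a nucleolar growth regulator, with 0.48, and NCL, nucleolin, with 0.40. Of 37 DNA replication genes 7 rose and 0 fell, beside the same 2.18% of all genes that rose, 36 were positive, and the median was 0.22. TYMS, the thymidylate synthase, had 11.69, 11.66 and 11.54 in YAP-S127A cells, 11.45, 11.44 and 11.28 in vector cells and 11.13, 11.10 and 11.31 in mock cells, a rise of 0.45 (adjusted p = 0.0134). MCM10 and CDC45, which activate the replicative helicase, rose by 0.49 and 0.48, GINS2, a helicase subunit, by 0.42, UHRF1, which maintains DNA methylation, by 0.43, the dUTPase DUT by 0.41 and PCNA, the sliding clamp, by 0.37. Second probes of DUT and PCNA gave 0.02 and 0.08 at the lowest.

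The vector median over mock was 0.04 for ribosome biogenesis and 0.09 for DNA replication, with 0 called in either. Over vector cells 1 ribosome biogenesis gene, LYAR, and 3 DNA replication genes, CDC45, MCM5 and DUT, rose, beside 1.76% of all genes. A single rise among 32 ribosome biogenesis genes is near that share. The mean deviation of the replication list was 0.12, 0.17 and 0.09 in the YAP-S127A arrays, 0.01, -0.02 and -0.06 in the vector arrays and -0.15, -0.05 and -0.10 in the mock arrays. The YAP-S127A arrays lay above all others, while vector array 3 lay below mock array 2. That of ribosome biogenesis was 0.14, 0.15 and -0.01, against 0.02, -0.05 and -0.05, and against -0.11, -0.02 and -0.07. The calls in both lists rested on few arrays: without YAP-S127A array 2 or mock array 1, 0 genes of either passed, and without YAP-S127A array 1, 1 ribosome biogenesis and 2 replication genes did. Replication had 4 without YAP-S127A array 3. With scaling to equal medians 0 ribosome biogenesis and 2 replication genes passed. Of 32 mitosis genes 0 were called in either direction, with 27 positive and a median of 0.10. Of 19 G1 cyclins, their kinases and inhibitors 1 rose and 1 fell, beside 2.18% and 2.07% of all genes. CDK6, a G1 kinase, rose by 0.65 (adjusted p = 0.000991), with all YAP-S127A arrays (9.69, 9.37 and 9.31) above the mock arrays (8.86, 8.90 and 8.66). RBL2, a pocket protein of quiescence, fell by 0.40 (adjusted p = 0.0342). The RBL2 call was lost without any 1 YAP-S127A array or mock array 1.

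**Figure D4:**
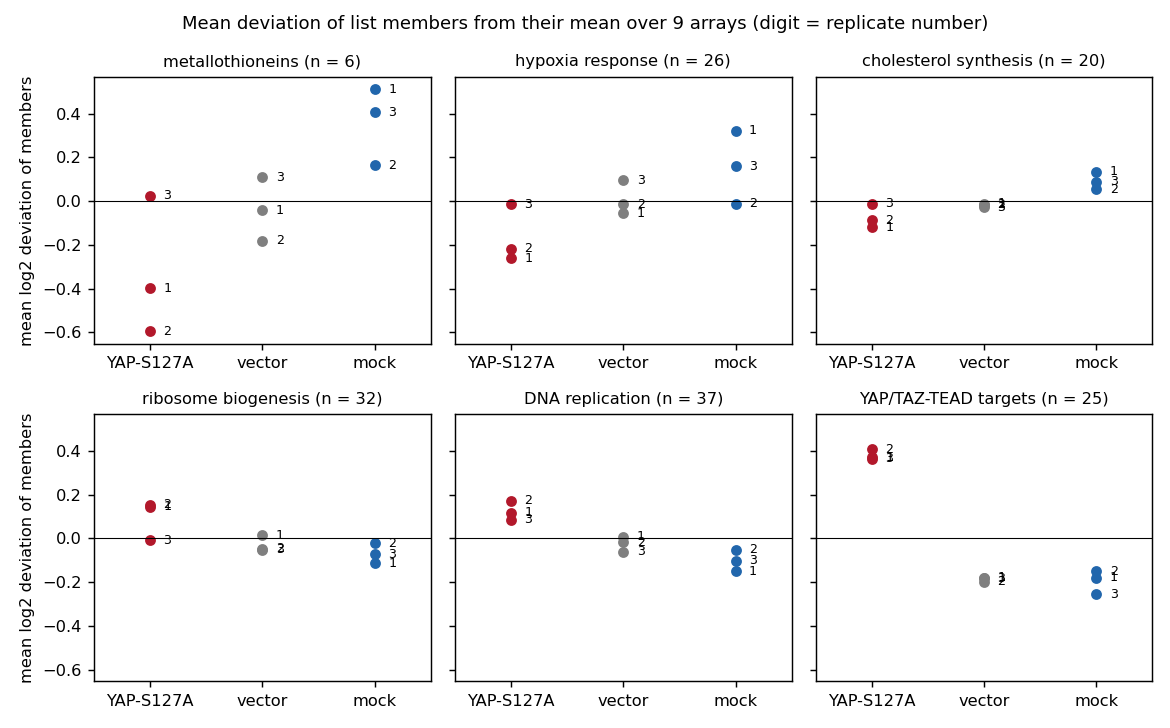
Mean log2 deviation of the members of 6 lists from their own mean over the 9 arrays (vertical axes), per array, in YAP-S127A, vector and mock cells, with replicate numbers as digits. YAP-S127A array 3 lies nearest the other groups for metallothioneins (0.02) and hypoxia genes (-0.02), and for the YAP/TAZ-TEAD targets the YAP-S127A arrays (0.36 to 0.41) lie above all vector and mock arrays (-0.26 to -0.15).

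Interferon-response genes, which cells can raise on sensing foreign nucleic acid, had 0 called among 36 in vector cells against mock cells, with a median of 0.06 beside 0.0034 over all genes. In YAP-S127A cells 2 rose and 1 fell, beside 2.18% and 2.07% of all genes. IFITM3, a membrane protein that blocks viral entry, had 11.62, 11.61 and 11.76 in YAP-S127A cells, 10.94, 10.86 and 11.01 in vector cells and 10.65, 10.91 and 10.996 in mock cells, a rise of 0.81 over mock (adjusted p = 3.43e-05) and 0.72 over vector (adjusted p = 0.000166). Its close paralog IFITM2 rose by 0.63 over mock, and the probes of both may read either. OASL, an antiviral protein of the oligoadenylate synthetase family, fell by 0.45 against mock (adjusted p = 0.0108), and its call was lost without YAP-S127A array 3. Without mock array 2, 4 interferon genes rose.

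Among the lists, the YAP/TAZ-TEAD targets held the most rises, and epithelial markers moved both ways. Of 25 targets 12 rose and 0 fell against mock, beside 2.18% of all genes that rose, with a median of 0.32, and the vector median was 0.01. Beside CCN1, CAV1 and IGFBP3, the actin-linked adaptor AJUBA rose by 1.47, the annexins ANXA3 and ANXA1 by 1.05 and 0.40, the vasoconstrictor peptide EDN1 by 1.03, the stress protein GADD45B by 1.01, the membrane repair protein MYOF by 0.67, FJX1 by 0.60 and tissue factor F3 by 0.53. Other AJUBA probes gave -0.03 and -0.08. The count was 10 without YAP-S127A array 2 or mock array 1. CCN2, a matricellular protein and TEAD target, had 7.95, 8.03 and 7.72 in YAP-S127A cells, 6.77, 6.83 and 6.84 in vector cells and 6.76, 6.68 and 6.83 in mock cells, a rise of 1.14 (adjusted p = 1.33e-07). Its promoter, chr6:131951323-131951622 on the minus strand of GRCh38.p14, is shown for the TEAD core GGAATG, whose matches are in capitals.
CCN2: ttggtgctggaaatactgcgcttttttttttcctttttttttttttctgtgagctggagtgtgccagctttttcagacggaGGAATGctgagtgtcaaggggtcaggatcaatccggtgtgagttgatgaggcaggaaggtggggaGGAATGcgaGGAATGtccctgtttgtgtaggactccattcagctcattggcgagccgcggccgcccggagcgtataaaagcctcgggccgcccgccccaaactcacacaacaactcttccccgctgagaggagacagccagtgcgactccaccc
It held 3 matches, 169, 104 and 95 bases before the start (-169, -104 and -95). The core was present in 8 of 20 promoters of the targets (40.0%), in 3 of 21 hypoxia-response promoters (14.3%), in 0 of the 3 metallothionein promoters and in 11.3% of the promoters of genes tested. Among the gastric epithelial markers the simple-epithelium keratins KRT7, KRT18 and KRT8 rose by 1.52, 1.25 and 0.88, while ANXA10, CLDN18, the trefoil factor TFF1, the adhesion protein CDH17 and CEACAM5 fell, TFF1 by 0.69, CDH17 by 0.52 and CEACAM5 by 0.40. The CEACAM5 call was lost without YAP-S127A array 1, YAP-S127A array 2, mock array 1 or mock array 2.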

How the data were processed

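RNA of 9 MKN45 samples was hybridised to single-colour Illumina bead arrays. The deposited signal table gave bead-summarised intensity values on a linear scale for 47231 probes. Per the submitters' processing notes BeadStudio was used, with no version given in the sources used here. The deposited series matrix held log2 values that the authors had normalized between arrays, with a median of 6.92 on each array and the rank order of the signal table, and it served as an alternative.

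Signals were corrected with normexp (offset 50), log2 transformed and quantile normalized with limma 3.58.1 (R 4.3.3). The offset shrinks fold changes of dim genes. No detection p-values were used. Probes with a mean above the lower quartile (6.18) were kept, 35423 in all. Of the probes, 30113 had 1 gene, 8 several and 17110 none, and 30074 took a current symbol from RefSeq (GRCh38.p14), which was used for names and promoters only. The genome build of the array was not stated. The brightest probe stood for a gene, which gave 16180 genes. The limma fit of the 9 arrays held 1 mean for each group (6 residual and 16.4 prior degrees of freedom), and p-values were Benjamini-Hochberg adjusted over all genes. The fit was tested on simulated data.

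The members and gene lists were chosen with earlier results of these data known. Named are the YAP1 probe, the 12 genes that rose and the 12 that fell most with arrays that did not overlap, every called member of the main lists, every metallothionein, and in other lists the called members and up to 4 uncalled ones with the lowest p. Other uncalled members, genes of the vector comparison and genes in comparisons with vector were chosen for their role or after their values were seen. Of the genes the rule names, 1 among the 12 largest rises is not reported here. Promoter matches were counted with Python 3.11.15 and pandas 2.3.3 and figures drawn with matplotlib 3.10.9. The 23 alternatives were other background, normalization, filter, probe, moderation, weighting, block and threshold settings, and leaving out each array.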

Additional observations from a re-analysis of the deposited data

How the results depend on the processing

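Of the 102 called genes followed across settings, 1 of them not described here, 48 stayed called in all 23 alternatives and 54 were lost in at least 1, and 0 of 2369 values of these genes and MT1G changed sign. Scaling to equal medians gave 467 called genes for YAP-S127A against mock, with 186 higher and 281 lower (39.8% higher, against 51.2%), and against vector 167 higher and 266 lower, in place of 284 and 275. A threshold of 0.01 gave 291 (172 higher, 119 lower) against mock, 271 against vector and 1 for vector against mock. A 1.5-fold minimum gave 211 (126 higher, 85 lower) against mock and 195 against vector. Leaving out 1 array at a time gave 332 to 808 called genes against mock, 190 to 378 higher and 133 to 430 lower. The same gave 299 to 729 against vector and 1 to 54 for vector against mock, the 54 without mock array 3. Vector against mock gave 1 gene with the deposited log2 values and 1 with the mean of the probes. The other settings left these counts of all called genes within 1.5 times the value reported, and so did the replicate block, with 648 against mock. Same-numbered YAP-S127A and mock arrays had correlations of their deviations of 0.04, 0.10 and 0.05. Such weak values cannot tell whether same-numbered arrays were handled together, and the replicate block was used as an alternative only. Counts of list members moved by over 1.5 times in 179 of 1288 list values. With 3 arrays a group and no detection values, small differences and dim genes are the least certain, and the cause of each change above was not tested.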

Other observations

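Beside the genes, 12706 probes kept by the filter have no gene listed in the probe table used here. In YAP-S127A cells against mock cells 163 of them were called in the fit of every probe (96 higher and 67 lower, 1.28%), and in vector cells against mock cells 1 was called, lower.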
